A study of Mus musculus with 30 samples.

Results

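The gastrocnemius, a hindlimb muscle of the calf, was compared with the diaphragm, the muscle of breathing, in wild-type (WT) mice. Of the 30 libraries of the series, 8 entered the comparison, WT gastrocnemius 1 to 4 and WT diaphragm 1 to 4, and they were chosen by tissue and genotype alone. The series set Mtm1-/y mice, in which the phosphatase of phosphoinositides named myotubularin is lost, beside their WT littermates in the gastrocnemius, diaphragm, heart and liver. The WT mice used here were males of a pure 129Pas background, carried no transgene or treatment, and were 5 weeks old when the muscles were dissected and snap-frozen. RNA came from whole muscle and not from sorted cells, so a lower level of a transcript can stand for fewer cells of a type or for less RNA per cell, and these cannot be told apart. Poly(A) RNA was read as single 50-base reads, and the deposited values are read counts per gene. Where the muscles differ is given as the log2 fold change of gastrocnemius over diaphragm, so a positive value is higher in the gastrocnemius.

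Skeletal muscle fibres differ in the myosin heavy chain that they carry. Slow type 1 fibres use Myh7, and the fast types 2A, 2X and 2B use Myh2, Myh1 and Myh4 in order of rising speed. The gastrocnemius of the mouse is used in bursts and is built mostly of fast fibres that burn glycogen, whereas the diaphragm works without rest and depends on the oxidation of fat and sugar. The muscle cells of both come from somites, the cells for the diaphragm from the neck and those for the calf from the lumbar trunk, and Hox genes keep a record of position along this axis. The diaphragm is a thin sheet, covered on both faces by mesothelium, and lies against the liver.

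Liver RNA was visible in the diaphragm libraries, and how it came there was not tested. Albumin (Alb), the main secreted protein of hepatocytes, stood at 56.8, 26.3, 44.9 and 15.4 CPM (counts scaled to a fixed library total) in gastrocnemius 1 to 4 and at 26742, 16855, 284 and 19826 CPM in diaphragm 1 to 4. Diaphragm 3 thus held far less liver RNA than diaphragm 1, 2 and 4. Genes whose mean CPM in 3 WT liver libraries was over 10 times that in the WT gastrocnemius were left out, 5064 of 36103, and they took from 0.50% to 0.601% of the counts in the gastrocnemius and 17.4%, 11.7%, 1.75% and 14.1% in diaphragm 1 to 4. The rule removes in one direction. Of the genes left out, 1189 had counts enough to be tested, and in a fit that kept them 1157 were higher in the diaphragm and 0 higher in the gastrocnemius. Among these were 49 with under 1 CPM in liver.

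Library totals ran from 31785445 to 44289343 counts. The first principal component, with 78.0% of the variance, set the muscles apart, and diaphragm 3 lay away from the other libraries on the second, with 5.73%. The 10 most abundant genes took from 26.5% to 28.6% of all counts in the gastrocnemius and from 15.0% to 18.4% in the diaphragm, so that the scale matters. Values are given as CPM on the TMM scale, which sets the bulk of genes level, and on it the median log2 fold change of the 14850 genes tested was -0.05. On the plain library totals the same median was -0.66, and changes are best read against it.

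The muscles differed in a large part of the transcriptome. Called genes numbered 2835, 19.1% of those tested, at an adjusted p under 0.05 in edgeR's quasi-likelihood test and a log2 fold change past an absolute log2 value of 1. Of these, 1216 were higher in the gastrocnemius, 8.19% of the genes tested, and 1619 higher in the diaphragm, 10.9%. By the adjusted p alone, the rule used for the gene lists below, 54.3% of all genes passed, 25.2% higher in the gastrocnemius and 29.2% higher in the diaphragm, and in 49.8% the values of the 4 gastrocnemius and 4 diaphragm libraries did not overlap. With diaphragm 3 as the only diaphragm library, 968 genes were called higher in the gastrocnemius and 1164 in the diaphragm. That fit shares the 4 gastrocnemius libraries and diaphragm 3 with the main fit, so shared calls and directions are largely built in. It also assumes that the lone library varies as the gastrocnemius does. Leaving out genes at a liver ratio of 3 in place of 10 gave 1122 and 1095, and at a ratio of 1 it gave 920 and 865. With library totals as the scale the split toward the diaphragm widened, to 524 and 4320. For most gene lists below, the counts higher in the gastrocnemius and then in the diaphragm are followed by the same counts with diaphragm 3 as the only diaphragm library and on library totals.

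Position genes led the list on the gastrocnemius side. Among called genes without overlap that averaged 5 CPM or more, the largest difference was in Hoxc10 (chr15:102966796-102971893), a posterior Hox gene of the hindlimb. It stood at 64.8, 70.7, 69 and 72.9 CPM in gastrocnemius 1 to 4 and at 0.057, 0.0434, 0.0281 and 0 CPM in diaphragm 1 to 4 (log2 fold change 10.90, SE 0.20, adjusted p = 9.29e-10). Its annotated span overlaps that of Hoxc5 on the same strand. Hoxa10 (chr6:52231197-52240854), its relative in another cluster, stood at 22.2, 22.6, 19.8 and 22 CPM against 0, 0.0434, 0.0562 and 0.0274 CPM (log2 fold change 9.22, adjusted p = 1.03e-08). In both genes the diaphragm was close to no counts in all 4 libraries. The others of the 12 largest were Fgfbp1, a secreted carrier of fibroblast growth factors (log2 fold change 7.62), the modifying potassium channel subunit Kcnf1 (6.66), the transcription factor Sim2 (6.33), the lysine methyltransferase Mettl21c (5.63), the R-cadherin gene Cdh4 (5.49), the calcium channel subunit Cacna2d4 (5.40), and C130080G10Rik (7.10), BC023105 (6.89), Gm4841 (6.37) and Gm12224 (5.97). Mettl21c was at 177, 153, 130.4 and 109.7 CPM in the gastrocnemius and at 1.25, 6.9, 2.16 and 0.85 CPM in the diaphragm, without overlap. Cacna2d4 and Gm12224 overlap a gene on the other strand, and C130080G10Rik and Mettl21c overlap one on the same strand, so their reads may not all be their own.

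On the diaphragm side the largest differences were in genes of the body cavity lining and of plasma cells. Wt1 (chr2:105126529-105173616), a transcription factor of mesothelium, stood at 0.0306, 0.0406, 0 and 0.0702 CPM in gastrocnemius 1 to 4 and at 11.6, 10.1, 10.9 and 13.4 CPM in diaphragm 1 to 4 (log2 fold change -8.23, SE 0.30, adjusted p = 8.2e-08). The antibody heavy chain segment Ighv2-9 had 0 counts in every gastrocnemius library and 6.36, 1.52, 1.46 and 32.1 CPM in the diaphragm, at least 401-fold higher against a floor of 3 counts over the 4 gastrocnemius libraries (adjusted p = 0.00676). It belongs to a family of near-identical segments, so the assignment of its reads is uncertain. Jchain, which links the antibody units of IgM and IgA, was at 0.275, 0.69, 0.792 and 0.772 CPM against 64.6, 14.7, 6.09 and 103 CPM (log2 fold change -6.23, adjusted p = 0.000391). Wt1 was alike in all 4 diaphragm libraries, whereas Ighv2-9 and Jchain differed several-fold among them. Rspo1 (-7.78), an enhancer of Wnt signalling, Nkain4 (-5.77), Col6a5 (-5.76), Cyp2s1 (-5.72), Pkhd1l1 (-5.63), the fat hormone resistin, Retn (-4.87), Gpm6a (-4.86) and keratin 19, Krt19 (-4.75) followed. Rspo1, Nkain4 and Cyp2s1 overlap a gene on the other strand and Gpm6a overlaps others on the same strand, so their reads may not all be their own. Mylk3, a myosin light chain kinase best known from the heart, completed the 12, at 1.35, 0.934, 1.02 and 1.12 CPM in the gastrocnemius and 26.8, 23.6, 33.1 and 27.8 CPM in the diaphragm (log2 fold change -4.64, adjusted p = 5.61e-08).

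The dominant myosin differed between the muscles. Per kilobase of exon, Myh4 (type 2B) made up 87.2%, 92.8%, 89.9% and 91% of the transcripts of the 4 adult myosin heavy chains in gastrocnemius 1 to 4, and 6.59%, 26.2%, 10.3% and 16.8% in diaphragm 1 to 4. Its mean share was 90.2 ± 2.33% against 15 ± 8.59% (SD, n = 4 each). Myh1 (type 2X) had the largest share in the diaphragm, with 5.23 ± 1.5% in the gastrocnemius and 58.5 ± 7.2% in the diaphragm. The share of Myh2 (type 2A) went from 3.27 ± 0.634% to 22.8 ± 2.8%. Slow Myh7 (type 1) was a small part in both, 1.25 ± 0.653% and 3.74 ± 0.224%. These are shares of unlike totals. The summed sarcomeric myosin heavy chains ran from 65115 to 78193 CPM in the gastrocnemius and from 14018 to 24103 CPM in the diaphragm. In CPM, Myh7 averaged 1213 in the gastrocnemius and 903 in the diaphragm, although its share was higher in the diaphragm. For each of the 4 shares the muscles did not overlap, and the two-sided exact permutation test gave p = 0.0286, the smallest that 4 libraries against 4 allow (0.0286 after Benjamini-Hochberg adjustment over the 4 shares). With the libraries paired by number, an exact sign-flip test gave p = 0.125 for each share, the smallest that 4 pairs allow, so the paired design cannot reach the threshold. Diaphragm 2 had the largest Myh4 share of the diaphragm libraries and diaphragm 1 the smallest. Leaving out any 1 library, or the division by length, kept the direction of each share.

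**Figure D1:**
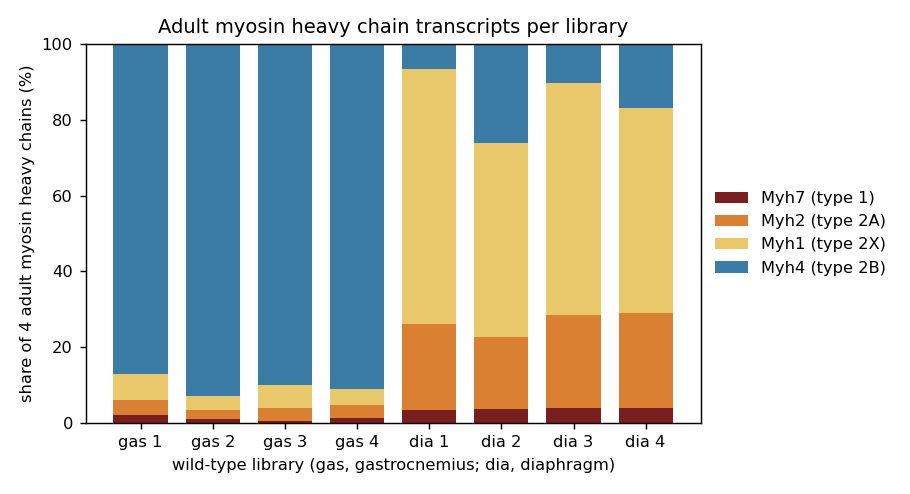
Share of Myh7, Myh2, Myh1 and Myh4 in the summed CPM per kilobase of exon of these 4 genes, in percent, as 1 stacked bar per WT library. Myh4 fills most of each gastrocnemius bar (mean 90.2%), and Myh1 is the largest part of each diaphragm bar (mean 58.5%).

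In CPM, Myh4 stood at 55312, 71542, 57900.3 and 63107 in the gastrocnemius and at 880.1, 5078, 2241 and 2124 in the diaphragm (log2 fold change 4.59, SE 0.50, adjusted p = 5.35e-05). Myh1 ran the other way, 4507, 3021, 4271 and 3072 CPM against 9503, 10496, 14036 and 7252 CPM (log2 fold change -1.47, adjusted p = 0.000494). Both genes lie in the cluster of fast and developmental myosins on mouse chromosome 11. Of the 9 sarcomeric myosin heavy chains tested, Myh4, the embryonic Myh3 (log2 fold change 1.77) and the extraocular Myh13 (2.64) were higher in the gastrocnemius, and Myh1 and Myh2 (-0.77) in the diaphragm. Myh3 and Myh13 were low in both muscles, at most 10.5 and 7.19 CPM. Myh7, Myh6, Myh7b and the perinatal Myh8 did not pass (adjusted p from 0.233 to 0.504), and Myh15 was under the count filter. Without gastrocnemius 3 the count higher in the gastrocnemius was 5 in place of 3. Stretches of these genes share sequence, so reads may be split among them.

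The 200 bases before the RefSeq start site (GRCm38.p6) are shown for 4 genes on which the comparison turns, the dominant myosin of each muscle, the calcium-binding Casq2 that was higher in the diaphragm, and Hoxa10. Capitals mark an E-box (CANNTG, the site of MyoD and its relatives), a MEF2 site, an MCAT element (CATTCC or its reverse complement GGAATG, the site of TEAD factors) or a TATA box (TATAAA on the gene's strand); no marked sites overlap.
Myh4, chr11:67237612-67237811, plus strand: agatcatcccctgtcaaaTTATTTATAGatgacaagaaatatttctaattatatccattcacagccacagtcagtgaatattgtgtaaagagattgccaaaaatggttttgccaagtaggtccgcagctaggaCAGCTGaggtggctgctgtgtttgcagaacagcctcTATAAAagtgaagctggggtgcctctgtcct
Myh1, chr11:67199902-67200101, plus strand: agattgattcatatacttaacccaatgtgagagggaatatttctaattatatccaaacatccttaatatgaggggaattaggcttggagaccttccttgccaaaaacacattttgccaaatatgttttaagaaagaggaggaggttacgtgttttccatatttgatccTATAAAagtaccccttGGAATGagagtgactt
Casq2, chr3:102086215-102086414, plus strand: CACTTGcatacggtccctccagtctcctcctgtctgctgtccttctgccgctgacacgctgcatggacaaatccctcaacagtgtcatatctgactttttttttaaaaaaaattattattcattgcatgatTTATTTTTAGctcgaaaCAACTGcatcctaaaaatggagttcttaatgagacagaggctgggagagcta
Hoxa10, chr6:52240855-52241054, minus strand: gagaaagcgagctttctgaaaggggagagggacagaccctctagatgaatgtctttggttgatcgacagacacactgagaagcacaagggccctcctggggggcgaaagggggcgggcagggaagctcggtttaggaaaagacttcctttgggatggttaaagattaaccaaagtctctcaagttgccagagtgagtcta
Myh4 holds an E-box, a MEF2 site and a TATA box 31 bases before the start. Myh1 holds an MCAT element and a TATA box 32 bases before it, with neither of the other motifs in this window. Casq2 holds 2 E-boxes and a MEF2 site, and Hoxa10 none of the 4 motifs. In the same window of 17146 RefSeq promoters, 54.1% hold an E-box, 1.67% a MEF2 site, 9.26% an MCAT element and 5.51% a TATA box. The called genes come from the genes tested, and among 10679 promoters of those the shares were 49.1%, 1.37%, 8.24% and 3.19%. Among promoters of genes called higher in the gastrocnemius (660 matched) the shares were 56.4%, 3.64%, 10.3% and 6.36%, and among those called higher in the diaphragm (1122 matched) 57.8%, 1.34%, 8.56% and 5.44%, in the same order. These shares describe letters in the window and were not tested.

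The fast contractile machinery was higher in the gastrocnemius as a whole. Of 18 fast fibre genes, 16 were higher in the gastrocnemius and 2, Myh1 and Myh2, in the diaphragm (16 and 2 with diaphragm 3 alone, 16 and 2 on library totals), with a median log2 fold change of 2.27. Actn3, the alpha-actinin of fast fibres, stood at 10989, 12811, 10419 and 12894 CPM in the gastrocnemius and 614, 1286, 754 and 555 CPM in the diaphragm (log2 fold change 3.88, SE 0.29, adjusted p = 6.06e-06). The calcium buffer parvalbumin, Pvalb, was at 14691, 19602, 14980.5 and 17319 CPM against 1006, 2018, 1332 and 1030.2 CPM (log2 fold change 3.63, adjusted p = 5.84e-06). Ampd1, the AMP deaminase of muscle (2.67), the light chain Myl1 (2.45) and the fast troponins Tnnc2 (1.59) and Tnni2 (1.36) went the same way. Diaphragm 2, which had the most Myh4, also had the most Pvalb and Actn3 of the diaphragm libraries.

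Slow fibre genes showed no such shift. Of 16 tested, 2 were higher in the gastrocnemius, 3 in the diaphragm and 11 did not pass (0 and 4 with diaphragm 3 alone, 1 and 9 on library totals), with a median of -0.12. Casq2, the calcium store protein of slow and cardiac muscle, was the clearest member, at 59.8, 40.1, 36 and 45.6 CPM in the gastrocnemius and 248, 239.7, 344 and 240.2 CPM in the diaphragm (log2 fold change -2.56, SE 0.18, adjusted p = 4.82e-06). The other calls were Mybpc1 (-0.59) and Myoz2 (-0.60) in the diaphragm and Ankrd2 (1.50), a stretch-responsive nuclear protein, and Myl3 (0.58) in the gastrocnemius. Tnni1, the slow troponin I, was at 435, 268, 109 and 297 CPM in gastrocnemius 1 to 4 and at 155, 263, 252 and 170.5 CPM in diaphragm 1 to 4 (adjusted p = 0.35). Its values overlapped, as they did for Myl2 and Myh7. Within the gastrocnemius the slow genes moved together, since gastrocnemius 1 was the highest library in 16 of the 16 and gastrocnemius 3 the lowest in 15. Without gastrocnemius 3 the count higher in the gastrocnemius was 6, without gastrocnemius 1, gastrocnemius 4, diaphragm 1 or diaphragm 2 it was 1, and without gastrocnemius 1 the count higher in the diaphragm was 5. Mybpc1 did not pass without gastrocnemius 2, 3 or 4 or diaphragm 3 (adjusted p from 0.0545 to 0.0688), nor Myl3 without gastrocnemius 1 or 4 or diaphragm 1 or 2 (adjusted p from 0.0797 to 0.0991).

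Because the scale moves the counts of several lists, ratios of related genes within a library are also given, which do not depend on the scale. For 14 pairs, chosen after the values of their members had been seen and so not tested, the ratio of the first gene to the second was higher in every gastrocnemius library than in any diaphragm library. The geometric mean of the ratio, taken per kilobase of exon, was higher in the gastrocnemius for Myh4 to Myh1 by 78.8-fold, for Casq1 to Casq2 by 31.3-fold, for Actn3 to Actn2 by 17.9-fold, for Atp1b2 to Atp1b1 by 16.8-fold, for Ldha to Ldhb by 16-fold and for Mybpc2 to Mybpc1 by 10.9-fold. The smallest differences of the 14 were in Tnni2 to Tnni1, by 2.14-fold, and Tnnc2 to Tnnc1, by 2.6-fold, whereas the third troponin pair, Tnnt3 to Tnnt1, differed by 4.44-fold. Actn3 exceeded Actn2 in every gastrocnemius library and lay below it in every diaphragm library, and the same held for Myh4 and Myh1, Mybpc2 and Mybpc1, Ldha and Ldhb, and the sodium pump subunits Atp1b2 and Atp1b1.

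**Figure D2:**
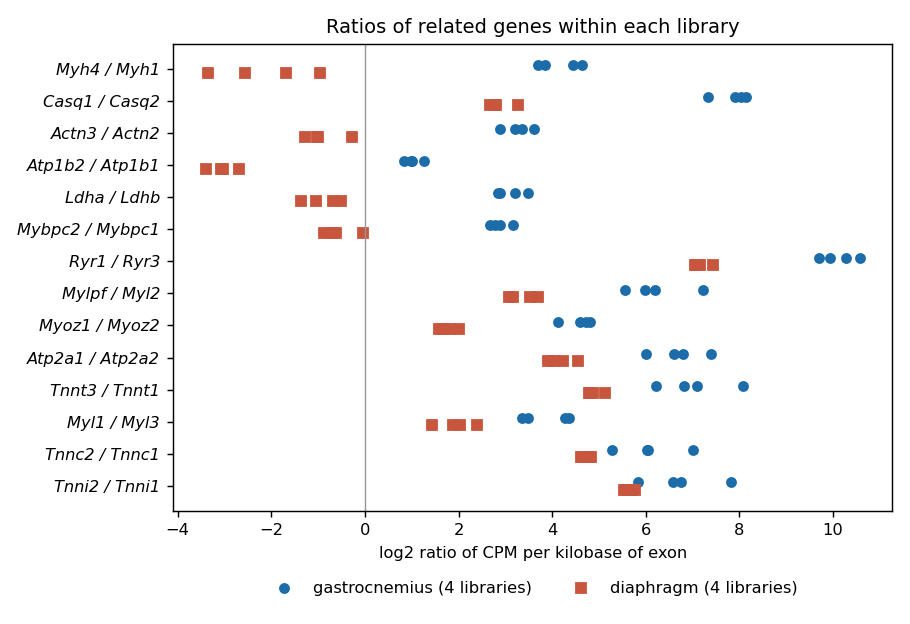
Log2 ratio of CPM per kilobase of exon for 14 pairs of related genes, 1 circle per gastrocnemius library and 1 square per diaphragm library, with 0 where both genes are level. The gastrocnemius lies to the right of the diaphragm in each pair, by 78.8-fold on average for Myh4 over Myh1 and 2.14-fold for Tnni2 over Tnni1.

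The handling of calcium differed in its parts. Sarcolipin, Sln (chr9:53850164-53854560), a small peptide that uncouples the calcium pump of the sarcoplasmic reticulum, was at 20.3, 14.7, 5.28 and 15.6 CPM in gastrocnemius 1 to 4 and at 280.0, 312, 399 and 325 CPM in diaphragm 1 to 4 (log2 fold change -4.56, SE 0.35, adjusted p = 7.28e-06). Myoregulin, Mrln, another peptide that acts on the same pump, was higher in the gastrocnemius, 60.6, 75.1, 70 and 75.7 CPM against 19.5, 29.7, 26.9 and 26.9 CPM (log2 fold change 1.45, adjusted p = 1.72e-05). Neither gene was above the level of a few reads in WT liver. Of the 12 members of the list, 6 were higher in the gastrocnemius, among them the fast calcium store Casq1 (2.38) and Pvalb, and 3 in the diaphragm (6 and 3 with diaphragm 3 alone, 6 and 6 on library totals), Sln, Casq2 and the chaperone Calr (-1.15). Calr is abundant in liver, at 1128 CPM, and within the diaphragm it was lowest in diaphragm 3, at 222 CPM. The slow pump Atp2a2 (adjusted p = 0.0682) and phospholamban, Pln (0.738), did not pass. Without gastrocnemius 1 the count higher in the diaphragm was 5.

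At the triad, where the membrane signal meets the calcium store, 18 of 21 genes were higher in the gastrocnemius and 1 in the diaphragm (16 and 1 with diaphragm 3 alone, 13 and 3 on library totals), with a median of 0.89. Cacng1, the gamma subunit of the voltage sensor, was at 281, 349, 261 and 367 CPM against 16.1, 44.1, 31.9 and 31.2 CPM (log2 fold change 3.35, adjusted p = 9.58e-06), the junctophilins Jph1 (1.77) and Jph2 (1.78) and the beta subunit Cacnb1 (1.20) were also higher, and no values of these 4 genes overlapped. The calcium release channel Ryr1 was higher in the gastrocnemius (1.32), whereas Ryr3, its relative, was the 1 member higher in the diaphragm, at 4.22, 5.77, 2.74 and 3.86 CPM against 8.13, 14.9, 16.9 and 10.3 CPM (log2 fold change -1.60, adjusted p = 0.000651). With the replicate number as a block, 2 members were higher in the diaphragm. Mtm1, the gene whose loss the series studies, did not pass, at 21.2, 21.2, 22.7 and 20.8 CPM in the gastrocnemius and 19.1, 19.8, 24.5 and 17.2 CPM in the diaphragm (log2 fold change 0.09, SE 0.11, adjusted p = 0.507). On library totals it was -0.51 and passed (adjusted p = 0.0012), close to the median of all genes on that scale.

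Fuel use separated the muscles in both directions. Glycolysis was higher in the gastrocnemius, with 13 of 17 enzymes higher there and 2 in the diaphragm (13 and 2 with diaphragm 3 alone, 13 and 4 on library totals), and a median of 1.60. Ldha, the lactate dehydrogenase that favours making lactate, was at 2297, 2783, 2304 and 2697 CPM in the gastrocnemius and 586, 816, 576 and 583 CPM in the diaphragm (log2 fold change 1.98, adjusted p = 7.24e-06). Ldhb, the form that favours its use, ran the other way, 152, 119, 148 and 138 CPM against 443, 549, 702 and 573 CPM (log2 fold change -2.03, adjusted p = 5.21e-06). Neither gene had overlapping libraries. Tpi1 (1.82) and Pgk1 (1.67) were among the higher enzymes, and hexokinase 1, Hk1 (-0.60), was with Ldhb the member higher in the diaphragm. Hk2 and Eno1 did not pass.

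For glycogen, 13 of 15 genes were higher in the gastrocnemius and 2 in the diaphragm (10 and 2 with diaphragm 3 alone, 10 and 3 on library totals), with a median of 1.20. The subunits of phosphorylase kinase, which switches on glycogen breakdown, were at the top. Phkb was at 616, 782, 690.4 and 689.6 CPM against 77.1, 132, 108 and 75.5 CPM (log2 fold change 2.82, adjusted p = 3.43e-06), Phka1 followed with 2.72 and Phkg1 with 2.33. Pgm1, which moves the phosphate on released glucose, had a log2 fold change of 2.34 and the muscle phosphorylase Pygm of 2.09. The branching enzyme Gbe1 (-1.04) and Pgm2 (-0.91) were the members higher in the diaphragm.

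Genes for the uptake and oxidation of fatty acids differed mostly toward the diaphragm, with 1 of 24 higher in the gastrocnemius and 20 in the diaphragm (0 and 21 with diaphragm 3 alone, 0 and 23 on library totals), and a median of -0.97. Etfdh, which passes electrons from fat oxidation to the respiratory chain, was at 153, 144, 169.9 and 154 CPM in the gastrocnemius and 339, 339, 370.4 and 343 CPM in the diaphragm (log2 fold change -1.17, SE 0.08, adjusted p = 5.15e-06). Acsl1, which activates fatty acids, was at 418, 342, 419 and 359 CPM against 1336, 1061, 1158 and 1064 CPM (log2 fold change -1.59, adjusted p = 6.93e-06), and the carnitine transferase Cpt2 (-1.05) and the isomerase Eci1 (2.01-fold) passed too. The lipase Lpl (-1.92) and the carrier Fabp3 (-1.95) had the largest differences. Liver also expresses many of these genes, Acsl1 at 1580.0 CPM, and their part in these values was not tested. Among the diaphragm libraries, diaphragm 3 was the highest in 10 of the 20 and the lowest in 0. It also lay above every gastrocnemius library in 20 of the 20. That is largely built in, since these genes were called with diaphragm 3 among the libraries. The 1 member higher in the gastrocnemius was the uncoupling protein Ucp3, at 241, 149, 209 and 439 CPM against 104, 60.9, 101 and 171 CPM (log2 fold change 1.25, adjusted p = 0.0132), with overlap. Cpt1b, Pdk4 and Acot13 did not pass.

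The respiratory chain did not follow fat oxidation. Of 36 subunits of complex I, 6 were higher in the gastrocnemius and 1 in the diaphragm (1 and 3 with diaphragm 3 alone, 0 and 34 on library totals), with a median of 0.06. Of 40 of complexes II to V the counts were 0 and 5 (0 and 7 with diaphragm 3 alone, 0 and 40 on library totals), with a median of -0.08, beside -0.05 for all genes. Ndufa13 was at 304, 303, 312 and 362 CPM against 221, 247, 249.8 and 252 CPM (log2 fold change 0.40, adjusted p = 0.00411), a difference of 1.32-fold. Cox7a1, the muscle form of a cytochrome oxidase subunit, was at 258, 288, 289.6 and 274 CPM against 293, 352, 409.8 and 331 CPM (log2 fold change -0.32, adjusted p = 0.0296) and did not pass without gastrocnemius 1, 2, 3 or 4 or diaphragm 2 or 3 (adjusted p from 0.0516 to 0.0874). Cox8a differed most (-1.85), and it was low in the gastrocnemius, at most 9.12 CPM, with 47.2 CPM in liver. The direction of these lists depends on the scale, and on library totals their medians were -0.55 and -0.68, beside -0.66 for all genes. Leaving out every gene with more CPM in liver than in the gastrocnemius gave 13 of 36 and 26 of 37 higher in the diaphragm. With the block 8 of complexes II to V were higher in the diaphragm, and leaving out 1 library gave from 2 to 7, with 2 without gastrocnemius 1, 2 or 3 or diaphragm 3 and 3 without gastrocnemius 4 or diaphragm 2 or 4. On library totals Ndufa13 was higher in the diaphragm (-0.21, adjusted p = 0.0436).

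In the tricarboxylic acid cycle single enzymes stood out from a level list (4 of 18 higher in the gastrocnemius, 3 in the diaphragm, median 0.00). The counts were 1 and 5 with diaphragm 3 alone and 0 and 17 on library totals. Idh2, the NADP-linked isocitrate dehydrogenase, was at 266, 236, 302 and 257 CPM in the gastrocnemius and 779.9, 982, 1215 and 994 CPM in the diaphragm (log2 fold change -1.90, SE 0.15, adjusted p = 7.02e-06), while Idh3a of the NAD-linked enzyme was at 914, 1007, 1005 and 952 CPM against 495, 594, 684 and 485 CPM (log2 fold change 0.78, adjusted p = 0.000542). The enzymes of the same step thus lay apart in opposite directions. Mdh1 (-0.87), a cytosolic enzyme of the malate shuttle, and Suclg2 (-0.81) were higher in the diaphragm. Liver also expresses both, Mdh1 at 780 CPM and Suclg2 at 117 CPM. Among the diaphragm libraries, diaphragm 3 was the lowest for Suclg2 and the highest for Mdh1. On library totals Idh3a did not pass (adjusted p = 0.0753). The count higher in the gastrocnemius was 1 without gastrocnemius 2, 3 or 4 or diaphragm 1 or 4, and 2 without diaphragm 2. Myoglobin, Mb, the oxygen store of muscle, was at 3186, 2566, 3369.9 and 2901 CPM against 6387, 7571, 9244 and 7182 CPM (log2 fold change -1.34, adjusted p = 0.000108), without overlap.

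Among 24 regulators of mitochondria and fibre type, 11 were higher in the gastrocnemius and 4 in the diaphragm (8 and 6 with diaphragm 3 alone, 5 and 14 on library totals), with a median of 0.20. Sox6, a repressor of slow genes, was at 162, 175, 180.0 and 168 CPM against 52.6, 66.5, 68.3 and 53.2 CPM (log2 fold change 1.51, adjusted p = 4.54e-06), and the cofactors Eya4 (2.42) and Eya1 (0.95) and the transcription factor Maf (2.15) were higher as well. Maf was at 212, 269, 243 and 353 CPM in the gastrocnemius and 51.2, 64.8, 52.8 and 73.1 CPM in the diaphragm. On the diaphragm side stood Ppargc1a, the coactivator of mitochondrial genes, at 34.1, 40.2, 35.7 and 35.5 CPM against 99, 64, 83.1 and 157 CPM (log2 fold change -1.47, adjusted p = 0.000452), the orphan receptor Esrrb (-1.55), Perm1 (-0.59) and Vgll2 (-0.48). Diaphragm 4 was highest in Ppargc1a, as it was in the fat genes described below, and the part of fat in this value was not tested. Ppara and Prox1 were left out by the liver rule.

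**Figure D3:**
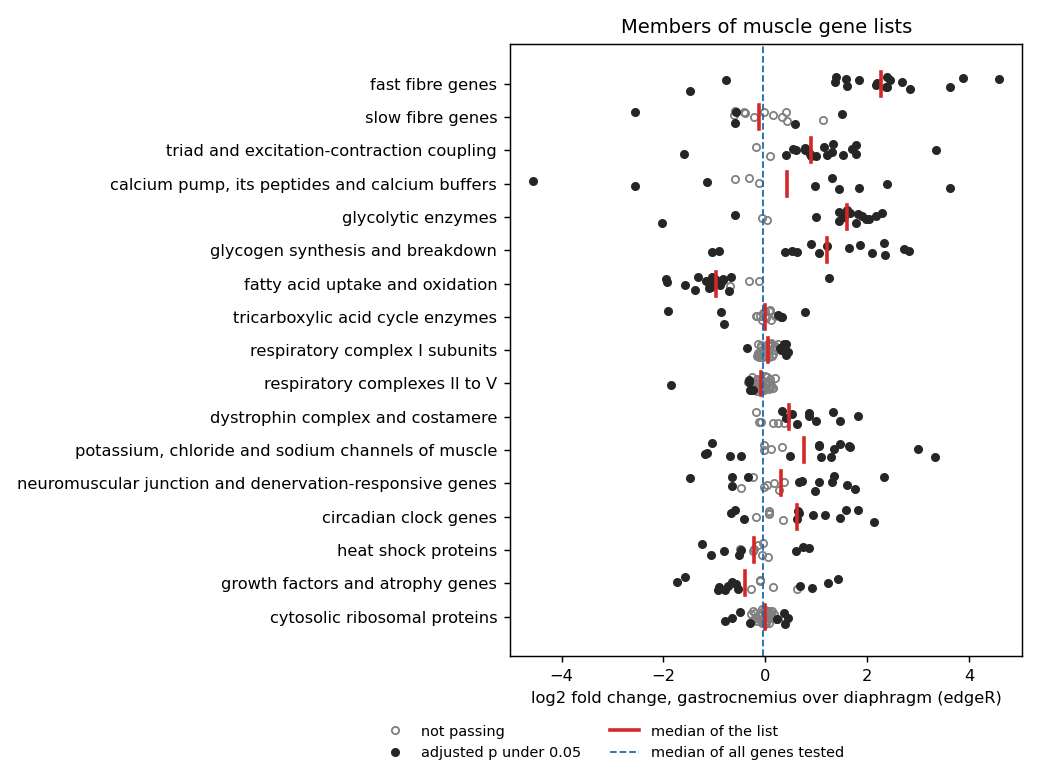
Log2 fold change of gastrocnemius over diaphragm for the members of the gene lists named on the left, 1 point per gene, filled where the edgeR adjusted p is under 0.05, with the median of each list as a red bar and that of all genes tested (-0.05) as a dashed line. Fast fibre genes (median 2.27) and glycolytic enzymes (1.60) lie to the right, fatty acid genes (-0.97) to the left, and the respiratory complexes (0.06 and -0.08) near the dashed line.

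Hox genes differed between the muscles by their place in the cluster. The number in the name of a Hox gene gives its rank in the cluster, from 1 at the anterior end to 13 at the posterior end. Of 28 Hox genes tested, 13 were higher in the gastrocnemius and 11 in the diaphragm (12 and 7 with diaphragm 3 alone, 12 and 12 on library totals), with 8 under the count filter and 3 whose symbol is not in the table used here. All 9 of the tested genes numbered 9 to 13 were higher in the gastrocnemius, as were 3 of 4 numbered 7 and 8, whereas 11 of 15 numbered 1 to 6 were higher in the diaphragm, 1 in the gastrocnemius (Hoxb6, 0.83) and 3 did not pass. Hoxb6 did not pass without gastrocnemius 1 or diaphragm 1 or 4 (adjusted p from 0.0561 to 0.0684). The median of the genes numbered 9 to 13 was 9.22, or 8.45 with genes of 0 counts set at their bound, and that of the genes numbered 1 to 6 was -1.05. Apart from Hoxd9, the tested genes numbered 9 to 13 were at most at 0.169 CPM in any diaphragm library. They passed the count filter through the gastrocnemius alone, so that all 9 lay on its side was largely fixed in advance. Hoxb9, Hoxc13, Hoxd11 and Hoxd13 were under the filter.

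The posterior genes were near absence in the diaphragm. Hoxc11 was at 7.93, 11.4, 10.8 and 8.87 CPM in the gastrocnemius, Hoxa11 at 7.13, 9.14, 3.5 and 7.65 CPM and Hoxa13 at 4.31, 5.4, 1.12 and 4.42 CPM, and each had 0 counts in all 4 diaphragm libraries. Against a floor of 3 counts over the diaphragm libraries these were at least 498-fold, 350.0-fold and 195-fold higher. Gastrocnemius 3 was the lowest for Hoxa11 and Hoxa13. Hoxc9 had 599 counts in the gastrocnemius and 1 in the diaphragm, a ratio of 790.0 (95% exact counting interval 141 to 31300.0). The Hoxd genes differed by less, Hoxd8 at 32, 42.9, 50.2 and 40.2 CPM against 4.62, 4.62, 3.82 and 6.5 CPM (log2 fold change 3.08, adjusted p = 1.8e-06), Hoxd9 with 3.36 and Hoxd10 with 5.08. No library of one muscle reached into the other for any of these.

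In the diaphragm the anterior genes were higher by smaller steps. Hoxc5 was at 2.69, 1.99, 1.85 and 2.7 CPM in the gastrocnemius and 13.7, 16.2, 15.7 and 10.8 CPM in the diaphragm (log2 fold change -2.61, adjusted p = 4.03e-06), and Hoxa5 at 1.71, 1.71, 1.72 and 1.72 CPM against 8.21, 8.87, 7.05 and 10.5 CPM (log2 fold change -2.34, adjusted p = 2.76e-06). Hoxb4 (-2.32), Hoxb2 (-2.67), Hoxb3 (-1.13) and Hoxa2 (-1.06) lay in the same direction. Hoxa4 (log2 fold change -0.51, adjusted p = 0.0383) and Hoxa3 (log2 fold change -0.63, adjusted p = 0.0463) passed with overlap. Hoxa4 did not pass without gastrocnemius 1, 2 or 3 or diaphragm 2, 3 or 4 (adjusted p from 0.0574 to 0.109), and Hoxa3 did not without gastrocnemius 1, 2, 3 or 4 or diaphragm 1 or 4 (adjusted p from 0.0643 to 0.129) or with the replicate block (adjusted p = 0.0621). In the Hoxc cluster the sign thus turned within a few neighbouring genes, since Hoxc6 was 4.01-fold higher in the diaphragm and Hoxc8 3.97-fold higher in the gastrocnemius. Hoxc8 was low in both muscles, averaging 1.45 CPM against 0.35 CPM. The annotated span of Hoxc5 covers Hoxc6, Hoxc8 and Hoxc9 on the same strand, so the assignment of their reads is uncertain.

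**Figure D4:**
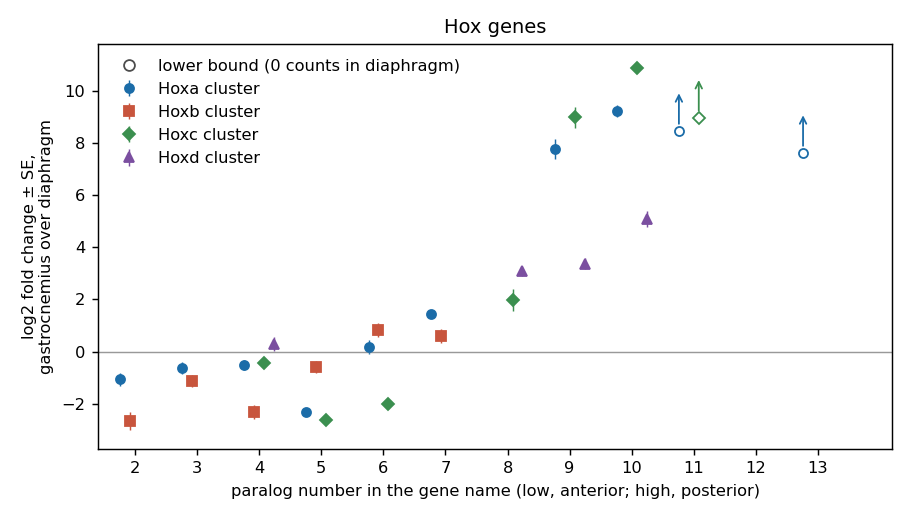
Log2 fold change of gastrocnemius over diaphragm with its SE for the tested Hox genes numbered 2 and above, against the number in the gene name, by cluster. Open symbols with arrows are lower bounds for genes with 0 counts in the diaphragm; genes numbered 9 and above lie at 3.36 or higher, and most of those numbered 2 to 6 lie below 0.

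Other transcription factors of position did not stand out as a list. Of 24, 4 were higher in the gastrocnemius and 8 in the diaphragm (2 and 12 on library totals). Of all genes tested, 25.2% and 29.2% were. The median was 0.01, or -0.07 with diaphragm 3 alone. Single members differed. Lbx1, which guides limb muscle precursors, was at 37.9, 43.3, 33.4 and 39.1 CPM in the gastrocnemius and 6.1, 5.99, 7.75 and 6.25 CPM in the diaphragm (log2 fold change 2.56, SE 0.12, adjusted p = 3.63e-07). Tbx3 was at 8.87, 8.85, 9.07 and 9.12 CPM against 43.5, 45.2, 46.6 and 46.1 CPM (log2 fold change -2.34, adjusted p = 2.73e-08), and Shox2 at 2.33, 1.99, 2.74 and 1.82 CPM against 25, 26.9, 33.7 and 23.9 CPM (log2 fold change -3.62, adjusted p = 3.29e-07). The libraries of each muscle were within a narrow range of each other for Tbx3. The next members are named after their values were seen. Tbx4, the T-box gene of the hindlimb, was higher in the gastrocnemius (1.56), and Tbx5, that of the forelimb and heart, in the diaphragm (-3.69), although at no more than 1.1 CPM. Pax3, a factor of muscle precursors, was at 0, 0, 0.099 and 0.105 CPM in the gastrocnemius and 6.53, 8.24, 9.41 and 5.7 CPM in the diaphragm (log2 fold change -7.08, adjusted p = 2.47e-06).

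Of 14 myogenic and satellite cell genes, 6 were higher in the gastrocnemius and 1 in the diaphragm (4 and 0 with diaphragm 3 alone, 3 and 6 on library totals), with a median of 0.31. Myog was at 29, 18.7, 20.3 and 16.3 CPM against 10.4, 7.7, 8.48 and 6.28 CPM (log2 fold change 1.36, adjusted p = 0.000286), Myod1 was 2.2-fold higher in the gastrocnemius and Mymk, which encodes the membrane protein that fuses myoblasts, 5.45-fold. The satellite cell markers Pax7 and Myf5 did not pass, and Cdh15 (0.68) did, although not on library totals (adjusted p = 0.573).

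At the membrane, 11 of 20 channel and pump genes were higher in the gastrocnemius and 5 in the diaphragm (10 and 5 with diaphragm 3 alone, 10 and 8 on library totals), with a median of 0.77. The fast potassium channel Kcnc4 was at 119, 137, 118 and 159 CPM against 6.07, 21.6, 13.1 and 12.1 CPM (log2 fold change 3.33, adjusted p = 2.26e-05), and the chloride channel Clcn1, which steadies the resting membrane, had a log2 fold change of 1.67. Atp1b2, a subunit of the sodium pump, was at 521, 603, 504 and 566 CPM in the gastrocnemius and 59.9, 91.8, 78.3 and 46.4 CPM in the diaphragm (log2 fold change 2.99, adjusted p = 3.38e-06), without overlap.

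At the neuromuscular junction 9 of 20 genes were higher in the gastrocnemius and 4 in the diaphragm (5 and 3 with diaphragm 3 alone, 5 and 7 on library totals), with a median of 0.31. Chrne, the adult subunit of the acetylcholine receptor, was at 34.3, 33.2, 29.2 and 32 CPM against 6.13, 6.83, 8.73 and 3.98 CPM (log2 fold change 2.33, adjusted p = 1.16e-05), and the sodium channel Scn4a had a log2 fold change of 1.34. Colq, the collagen tail that anchors acetylcholinesterase, went the other way, 21.5, 17, 16.3 and 21.3 CPM against 48.5, 47.6, 69.9 and 46.7 CPM (log2 fold change -1.48, adjusted p = 3.78e-05). Of 16 genes of the dystrophin complex and costamere, 10 were higher in the gastrocnemius and 0 in the diaphragm (6 and 1 with diaphragm 3 alone, 5 and 5 on library totals), with a median of 0.46, led by Synm (1.81), Ldb3 (1.47), Sgca (1.33) and Sgcb (0.98).

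Of 17 clock genes tested, 9 were higher in the gastrocnemius and 3 in the diaphragm (10 and 3 with diaphragm 3 alone, 5 and 5 on library totals), with a median of 0.62. The output factor Tef was at 356, 398, 341 and 319 CPM against 136, 132, 117 and 87.2 CPM (log2 fold change 1.58, adjusted p = 1.81e-05), and Bhlhe41 (2.12), Per1 (0.67) and Nr1d2 (0.64) were on the same side. The members higher in the diaphragm were Arntl (-0.59), Clock (-0.42) and Npas2 (-0.68), which encode activators of the loop and were named after their values were seen. The time of day of dissection is not given in the sources used here. On library totals Per1 (adjusted p = 0.708) and Nr1d2 (0.712) did not pass.

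Of 18 growth and atrophy genes, 4 were higher in the gastrocnemius and 9 in the diaphragm (2 and 6 with diaphragm 3 alone, 2 and 12 on library totals), with a median of -0.40. Fbxo40, a ubiquitin ligase subunit of muscle, was at 565, 634, 603 and 537 CPM against 189, 299.5, 298 and 209 CPM (log2 fold change 1.23, adjusted p = 0.000141), and myostatin, Mstn (1.42), which limits muscle growth, was also higher in the gastrocnemius. Klf15 (-1.73), Igfbp3 (-0.93) and Foxo3 (-0.66) were higher in the diaphragm, and liver expresses all 3. Klf15 was at 27.1, 30.5, 32.6 and 35.4 CPM in the gastrocnemius and 122, 85.6, 75.2 and 134 CPM in the diaphragm, lowest in diaphragm 3. Without gastrocnemius 2 the count higher in the diaphragm was 5. Heat shock genes gave 3 and 5 of 15 (1 and 12 on library totals) and a median of -0.23, with the small heat shock proteins Hspb8 (0.86) and Hspb2 (0.74) higher in the gastrocnemius and Hsp90aa1 (-1.08) and Dnajb1 (-0.81) in the diaphragm. Liver also expresses Hsp90aa1, at 28.5 CPM, and Dnajb1, at 24 CPM, and both were the lowest in diaphragm 3 among the diaphragm libraries. With diaphragm 3 as the only diaphragm library the log2 fold change of Dnajb1 was -0.39. Ribosomal protein genes, which have many near-identical copies, gave 4 and 4 of 43 (4 and 0 with diaphragm 3 alone, 0 and 38 on library totals) and a median of 0.00, with Rpl15 (0.44) and Rpl4 (0.36) on one side and Rpl3 (-0.65) and Rpl23 (-0.30) on the other. Rpl3 did not pass without gastrocnemius 2, 3 or 4 or diaphragm 1 (adjusted p from 0.0559 to 0.0587). Leaving out 1 library gave from 2 to 4 and from 1 to 5. The lowest counts for the gastrocnemius came without gastrocnemius 2 or 4 or diaphragm 2, and for the diaphragm without gastrocnemius 2 or 3, with 2 without gastrocnemius 4 or diaphragm 1.

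Markers of skeletal muscle were abundant in all 8 libraries, and 11 of 14 were higher in the gastrocnemius, 2 in the diaphragm (8 and 2 with diaphragm 3 alone, 8 and 3 on library totals), with a median of 1.31. Their summed level ran from 188520.0 to 222780.0 CPM over the gastrocnemius libraries and stood at 67174, 89181, 93663 and 65677 CPM in diaphragm 1 to 4. Ckm, the creatine kinase of muscle, was at 29542, 31076, 27631 and 37393 CPM against 7296, 8564, 8349.8 and 6653 CPM (log2 fold change 2.03, adjusted p = 2.54e-05). Markers of several other cell types were higher in the diaphragm, and they are given here beside the muscle lists, since their part in those results was not tested. All 30 hepatocyte markers with a symbol in the table were left out by the liver rule, so none was tested. Before that rule and on the same scale, their sum ran from 80 to 201 CPM over the gastrocnemius libraries and stood at 54498, 35308, 743 and 40820.0 CPM in diaphragm 1 to 4.

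All 6 mesothelial markers tested were higher in the diaphragm (0 and 6 with diaphragm 3 alone, 0 and 6 on library totals), with a median of -6.08 and with 10 others left out by the liver rule and 1 under the count filter. Their summed level ran from 26.9 to 37.3 CPM over the gastrocnemius libraries and stood at 572, 383, 582 and 630.3 CPM in diaphragm 1 to 4. Rspo1 stood at 0.0612, 0.0812, 0.066 and 0.0351 CPM in the gastrocnemius and 16.5, 8.07, 17.2 and 14.7 CPM in the diaphragm, the protease inhibitor Slpi had a log2 fold change of -7.29, and Krt19 and Gpm6a are described above. Diaphragm 3, with the least liver RNA, was the highest diaphragm library for Rspo1, Slpi and Gpm6a, whereas Wt1 was highest in diaphragm 4 and Krt19 in diaphragm 1. Several genes that the liver rule removed had the same shape with almost no liver signal. Lrrn4 was at 0 in every gastrocnemius library and at 40.9, 22.3, 49.5 and 39.4 CPM in diaphragm 1 to 4, with 0.548 CPM in liver. Upk1b, at 0 in the gastrocnemius, was at 19.7, 12.6, 25.1 and 24.4 CPM in the diaphragm. Both are known from mesothelium and were named after their values were seen.

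Markers of fat and blood cells were also higher in the diaphragm. Among the diaphragm libraries, diaphragm 3 had the lowest sum in each of these lists except that of brown adipocyte markers. Of 14 white adipocyte markers, 1, Car3, was higher in the gastrocnemius and 12 in the diaphragm (1 and 11 with diaphragm 3 alone, 0 and 13 on library totals), with a median of -2.74. Their sum ran from 3981 to 5645 CPM over the gastrocnemius libraries and stood at 11345, 9594, 4262 and 11493 CPM in diaphragm 1 to 4. Car3, which muscle fibres as well as fat cells express, made up much of it in the gastrocnemius. Acaca was at 6.95, 6.38, 6.24 and 6.03 CPM against 44.1, 44.9, 18.1 and 56.8 CPM (log2 fold change -2.68, adjusted p = 5.32e-05), and Pparg (-2.08), the master factor of fat cells, and Pnpla3 (-2.26) were also higher in the diaphragm. Adipoq, the fat cell hormone, was at 6.03, 5.81, 3.89 and 15 CPM in the gastrocnemius and 115, 119, 46.3 and 254 CPM in the diaphragm. Of 9 brown adipocyte markers, 0 were higher in the gastrocnemius and 5 in the diaphragm (0 and 8 on library totals). Ppargc1a, described above, is among the 5. The median was -0.47, or -0.58 with diaphragm 3 alone. Their sum ran from 357 to 414 CPM over the gastrocnemius libraries and stood at 481, 588, 589 and 712 CPM in diaphragm 1 to 4. Ucp1, the heat-making uncoupler of brown fat, was uneven, at 1.04, 1.83, 0.66 and 1.51 CPM in the gastrocnemius and 11.2, 50.7, 1.54 and 56.8 CPM in diaphragm 1 to 4 (log2 fold change -4.60, adjusted p = 0.00235). Diaphragm 3 lay within the gastrocnemius range for Ucp1, and with it as the only diaphragm library the gene did not pass (adjusted p = 0.644). Cidea was at 8.1, 24.4, 5.22 and 26.1 CPM in the diaphragm, highest in diaphragm 2 and 4 as Ucp1 was.

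Of 15 macrophage and dendritic cell markers tested, 0 were higher in the gastrocnemius and 15 in the diaphragm (0 and 14 with diaphragm 3 alone, 0 and 15 on library totals), with a median of -2.34. Their sum ran from 108 to 175 CPM over the gastrocnemius libraries and stood at 1203, 967, 527 and 758 CPM in diaphragm 1 to 4. Lysozyme, Lyz2, was at 18.2, 16.7, 28.1 and 16.6 CPM against 413, 416, 162 and 169 CPM (log2 fold change -3.86, adjusted p = 2.49e-05), and the antigen-presenting H2-Aa (-2.43), H2-Eb1 (-2.23) and Cd74 (-2.54) passed too. Liver also expresses these genes, Lyz2 at 37.3, H2-Aa at 39.8, H2-Eb1 at 26.7 and Cd74 at 86.9 CPM. Among the diaphragm libraries each was lowest in diaphragm 3, and the part of liver RNA was not tested. At a liver ratio of 3, which leaves out more of these markers, 2 were higher in the diaphragm. All 10 lymphocyte markers tested were higher in the diaphragm (1 and 6 with diaphragm 3 alone, 0 and 10 on library totals), with a median of -4.70, and their sum ran from 61.7 to 86.6 CPM over the gastrocnemius libraries and stood at 717, 244, 82.7 and 1244 CPM in diaphragm 1 to 4. The B cell gene Ms4a1 was at 0.0612, 0.0812, 0 and 0.14 CPM in the gastrocnemius and 10.7, 2.67, 1.24 and 5.87 CPM in the diaphragm (log2 fold change -6.13, adjusted p = 0.000259), and Cd79b had a log2 fold change of -3.75, with diaphragm 1 highest and diaphragm 3 lowest in both. The 8 red cell and neutrophil markers were all higher in the diaphragm (0 and 6 with diaphragm 3 alone, 0 and 8 on library totals), with a median of -4.01 and with Hbb-bs at 123, 87.7, 86.3 and 143 CPM against 2334, 2438, 1147 and 2126 CPM (log2 fold change -4.19, adjusted p = 3.55e-06). Hba-a1, Hba-a2 and Hbb-bt lay the same way, and the pairs of globin genes are near-identical, so the split of reads between them is uncertain. In each of these lists the background of genes higher in the diaphragm was 29.2%.

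**Figure D5:**
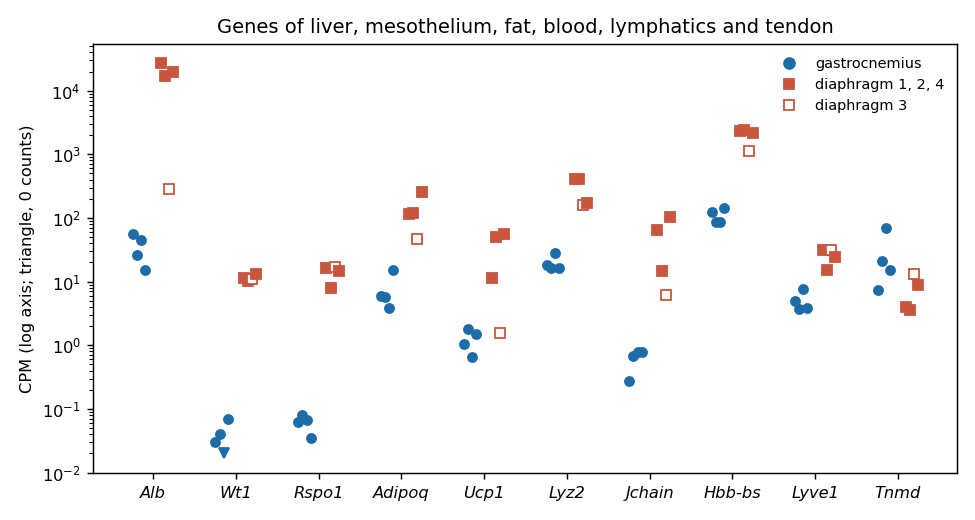
CPM on a log axis of genes of other cell types, 1 symbol per library, with diaphragm 3 as an open square and a library with 0 counts as a triangle at the foot (Alb on library totals, the others on the TMM scale). Mesothelial Wt1 is alike in all 4 diaphragm libraries and Rspo1 is lowest in diaphragm 2, whereas Alb, Adipoq, Ucp1 and Jchain are lowest in diaphragm 3, with Alb at 284 CPM there.

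Connective tissue ran partly the other way. Of 14 tendon markers, 8 were higher in the gastrocnemius and 2 in the diaphragm (0 and 2 with diaphragm 3 alone, 6 and 2 on library totals), with a median of 1.76, and their sum ran from 232 to 1254 CPM over the gastrocnemius libraries and stood at 309, 221, 417 and 346 CPM in diaphragm 1 to 4. Cilp2, a matrix protein of tendon and cartilage, was at 7.41, 14.4, 34.4 and 17.8 CPM in gastrocnemius 1 to 4 and at 1.28, 1.74, 3.62 and 6.03 CPM in diaphragm 1 to 4 (log2 fold change 2.55, adjusted p = 0.00256), and Ptx4 had a log2 fold change of 2.11. Gastrocnemius 3 was the highest library for both. The 2 members higher in the diaphragm were the lubricin gene Prg4 (-2.80) and Egr1 (-2.88), a gene of immediate responses that stood at 102, 6.29, 66.7 and 93.8 CPM in the diaphragm, where diaphragm 2 lay below every gastrocnemius library. Without gastrocnemius 3 the count higher in the gastrocnemius was 5.

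Of 21 fibroblast and matrix genes, 3 were higher in the gastrocnemius, Col1a1 (1.66), Col1a2 (1.53) and Col6a3 (0.60), and 7 in the diaphragm (0 and 11 with diaphragm 3 alone, 0 and 16 on library totals), with a median of -0.37. Col14a1, a collagen on the surface of fibrils, was at 27.4, 18.7, 34.4 and 16.7 CPM against 101, 58.9, 105 and 84.5 CPM (log2 fold change -1.84, adjusted p = 0.000179), and Pi16 (-1.26), Loxl1 (-1.06) and Dpt (-0.82) were higher in the diaphragm with it. Col1a1 was at 727, 799, 2987 and 1113 CPM in the gastrocnemius and 622, 219, 530.4 and 406 CPM in the diaphragm, with gastrocnemius 3 again highest. Without diaphragm 2 the counts were 1 and 11, and without diaphragm 4 the count for the gastrocnemius was 1.

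Of 18 endothelial markers, 0 were higher in the gastrocnemius and 8 in the diaphragm (0 and 5 with diaphragm 3 alone, 0 and 18 on library totals), with a median of -0.24. Lyve1, a receptor of lymphatic endothelium and of some macrophages, was at 5.05, 3.7, 7.52 and 3.89 CPM against 31, 15.2, 31.5 and 24 CPM (log2 fold change -2.33, adjusted p = 9.04e-05), and Kdr, the main receptor for vascular endothelial growth factor, at 68.4, 67.3, 66.4 and 49.8 CPM against 104, 107, 113 and 94.7 CPM (log2 fold change -0.73, adjusted p = 0.000338). Fabp4 (-1.63), which fat cells also make, and Cldn5 (-0.93) passed as well. Without gastrocnemius 4 the count was 5. Pericyte and smooth muscle markers gave 4 and 3 of 12 (1 and 3 with diaphragm 3 alone, 1 and 6 on library totals) and a median of 0.10, with Abcc9 (1.05) and Des (0.52), which fibres also express, higher in the gastrocnemius and Cspg4 (-0.44) and Kcnj8 (-0.47) in the diaphragm. Without gastrocnemius 4 these counts were 2 and 1, and neither Des (adjusted p = 0.0511) nor Kcnj8 (0.0525) passed.

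Nerve and heart markers were examined for what else the tissue might hold. Of 12 Schwann cell and nerve markers, 3 were higher in the gastrocnemius and 1 in the diaphragm (1 and 1 with diaphragm 3 alone, 1 and 1 on library totals), with a median of 0.61, and with the replicate block 8 were higher in the gastrocnemius. Leaving out 1 library gave from 1 to 6, with 1 without gastrocnemius 1 or 4 or diaphragm 1 or 2, and 6 without gastrocnemius 2 or 3. The neurofilament genes went apart, Nefh at 2.48, 1.91, 2.38 and 1.68 CPM against 0.114, 0.0868, 0.0843 and 0.0274 CPM (log2 fold change 4.69, adjusted p = 4.01e-06) and Nefm at 0.0918, 0, 0.198 and 0.0702 CPM against 2.25, 0.564, 1.54 and 0.713 CPM (log2 fold change -3.69, adjusted p = 0.00103), both at low levels. Mag (0.82) and Prx (1.04) were higher in the gastrocnemius with overlap, but Mag did not pass without gastrocnemius 1 or 4 or diaphragm 1, 2 or 4 (adjusted p from 0.0546 to 0.11), nor Prx without gastrocnemius 1 or 4 or diaphragm 1, 2 or 3 (adjusted p from 0.0583 to 0.137). Of 7 cardiomyocyte markers, 4 were higher in the gastrocnemius and 1 in the diaphragm (3 and 1 with diaphragm 3 alone, 1 and 2 on library totals), and the defining genes Nppa, Nppb, Mybpc3, Ryr2 and Nkx2-5 were under the count filter. Actc1, the actin of heart and of developing muscle, was at 7499, 7647, 6836 and 6885 CPM in the gastrocnemius and 335, 211, 439 and 109 CPM in the diaphragm (log2 fold change 4.72, SE 0.40, adjusted p = 1.23e-05), 26.4-fold higher and with no overlap. Myl4 (1.02) and Sbk2 (0.92) were higher in the gastrocnemius and Tnni3 (-0.78) in the diaphragm, all with overlap, and with the block Tnni3 did not pass (adjusted p = 0.0547), as it did not without gastrocnemius 3 or 4 or diaphragm 1, 3 or 4 (adjusted p from 0.0589 to 0.0829). Sbk2 did not pass without gastrocnemius 1 or diaphragm 1 or 4 (adjusted p from 0.0526 to 0.06), and the count for the gastrocnemius was 2 without gastrocnemius 1 or diaphragm 1.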

How the data were processed

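Whole-muscle poly(A) RNA (350 ng, TruSeq Stranded mRNA) was read on an Illumina HiSeq as single 50-base reads. The deposited values are raw read counts per gene in 1 table of 30 libraries, which the authors made with cutadapt 1.10 (Phred minimum 20, reads of at least 40 bases), STAR 2.5.3a on mm10 and HTSeq 0.6.1p1 with Ensembl 96 genes, after demultiplexing with bcl2fastq 2.17.1.14. The strand setting of the counting is not given in the sources used here. Gene symbols came from the Ensembl IDs through GENCODE, all 36103 matched. Here, genes past a liver to gastrocnemius ratio of 10 were left out, and 31039 were kept. The 8 WT libraries were fitted in edgeR 4.0.16 (R 4.3.3) with TMM, filterByExpr at a minimum count of 10 (14850 genes tested, 16189 below it), the quasi-likelihood test and Benjamini-Hochberg adjustment over all genes tested. The common biological coefficient of variation was 0.163. DESeq2 1.42.0 and limma 3.58.1 were alternatives, and the fit was tested on simulated data. The thresholds are those of the study. Library totals of 31785445 to 44289343 counts set the precision, and counting intervals and floors cover counting error only. The study's methods give 4 mice for each of these groups, and the labels number the libraries 1 to 4 without saying whether both muscles came from the same mice. Across genes, same-numbered libraries of the muscles deviated together (r = 0.196, 0.192, 0.106 and 0.194 for numbers 1 to 4, at most 0.0266 for other numbers). These are deviations from the mean of each muscle, so a positive r for the same number lowers that for the others. What underlies them was not tested. The numbers were taken to pair the libraries in the replicate block and the sign-flip test, and the main fit did not pair them. No pair of libraries held identical counts. The members and the 36 gene lists were chosen with earlier results of these data known. The genes named are the 12 largest called differences each way without overlap that averaged 5 CPM or more, up to 4 members of each list with the smallest p, all Hox genes and myosin heavy chains tested, and Mtm1. The values of 4 list members are not reported here. Other list members (Calr, Ryr3, Hk1, Gbe1, Pgm2, Pygm, Lpl, Fabp3, Ucp3, Esrrb, Perm1, Vgll2, Mstn, Arntl, Clock, Npas2, Adipoq, Car3, Col1a1, Col1a2, Col6a3 and others) were named after their values had been seen. Promoters are from RefSeq, GRCm38.p6.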

Additional observations from a re-analysis of the deposited data

Results flagged for a closer look

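In 420 groups of 4 libraries of 1 muscle, 1 library stood far from the other 3 for 19 genes and muscles, 10 of them in the diaphragm, where chance alone gives about 1 in 20. The measure is the gap of that library to its nearest neighbour divided by the range of the 4, past Dixon's 95% critical value, and it is given first for each gene, before the level of the library and the range of the others. Diaphragm 3, the library with the least liver RNA, was the highest of its muscle for Casq2 (0.918, at 344 CPM against 239.7 to 248), Etfdh (0.865, at 370.4 CPM against 339 to 343), Lbx1 (0.85, at 7.75 CPM against 5.99 to 6.25) and Colq (0.924, at 69.8 CPM against 46.7 to 48.5). Diaphragm 2, which had the largest Myh4 share of the diaphragm libraries, was the highest for Gm12224 (0.831, at 0.976 CPM against 0.274 to 0.393), Ldha (0.957, at 816 CPM against 576 to 586) and Myh15 (0.856, at 0.195 CPM against 0 to 0.0281). Diaphragm 4 was the highest for Ighv2-9 (0.84, at 32.1 CPM against 1.46 to 6.36), Hoxc9 (1.0, at 0.0274 CPM against 0) and Hoxb4 (0.898, at 6.28 CPM against 4.21 to 4.42). Gastrocnemius 4 stood apart for C130080G10Rik (0.867, at 18.8 CPM against 26.1 to 27.2), Ndufa13 (0.845, at 362 CPM against 303 to 312), Cpt2 (0.894, at 83.2 CPM against 76 to 76.8), Eya1 (0.869, at 39 CPM against 34.4 to 35) and Kdr (0.895, at 49.8 CPM against 66.4 to 68.4). Gastrocnemius 1, the highest library in all 16 slow fibre genes, was the highest for Rpl3 (0.946, at 3.37 CPM against 2.14 to 2.21) and Hoxb6 (0.872, at 1.22 CPM against 0.842 to 0.891). Gastrocnemius 2 was the highest for Nr1d2 (0.969, at 137 CPM against 120.2 to 121). Gastrocnemius 3 was the highest for Lyz2 (0.857, at 28.1 CPM against 16.6 to 18.2). The Hoxc9 value rests on 1 read. Liver RNA was visible also in the diaphragm library that held least of it, with Alb at 283.6 CPM of the library total in diaphragm 3 against 15.4 to 56.8 in the gastrocnemius.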

How the results depend on the processing

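Of the 191 genes named by rule, 189 kept their direction and their side of the threshold with the replicate number as a block, which pairs the muscles by library number. The count of calls with the block was 2823, 1232 higher in the gastrocnemius and 1591 in the diaphragm, and beyond Hoxa3, Tnni3 and the lists given above the block changed no other call of a named gene. DESeq2 called 3346 genes, limma voom 2915, size factors in edgeR 2809 and a fit without the count filter 3577, with every gene shared with the 2835 in the same direction. For the myosin shares, pairing gave the same differences, in percentage points, for Myh7 (-2.49), Myh2 (-19.5), Myh1 (-53.3) and Myh4 (75.3), and p = 0.125 by an exact sign-flip test, the smallest that 4 pairs allow. Leaving out 1 library gave from 2759 to 3287 calls, from 1196 to 1393 higher in the gastrocnemius and from 1554 to 1894 in the diaphragm.

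With the adjusted p alone 8070 genes passed, 3738 higher in the gastrocnemius and 4332 in the diaphragm. With liver genes kept the count for the diaphragm was 2597, and the share of calls higher in the gastrocnemius was 33.7%, beside 42.9% with them left out. Leaving out genes above their gastrocnemius level in liver, which tests fewer genes, gave 1785 calls, with 865 higher in the diaphragm and a share of 51.5%. With the mean log2 CPM of the hepatocyte markers as a covariate, which itself differs between the muscles, 1203 were called, 513 and 690. Of the 191 genes named by rule, 112 kept their direction and side of the threshold, 67 no longer passed and 12 changed sign. The count higher in the gastrocnemius went from 18 to 6 at the triad, from 10 to 1 in the dystrophin list and from 13 to 12 in glycolysis. For tendon markers that count went from 8 to 0. The count higher in the diaphragm went from 20 to 17 for fatty acid genes and from 6 to 5 for mesothelial markers. It fell further for other cell types, from 10 to 0 for lymphocyte, 12 to 3 for white adipocyte and 5 to 0 for brown adipocyte markers. For macrophage markers it went from 15 to 9, and for red cell and neutrophil markers from 8 to 6. On library totals 4844 were called, 524 and 4320, a share of 10.8%. The alternatives of diaphragm 3 alone, a liver ratio of 1, library totals and the paired myosin shares were chosen after seeing the data.

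Some named genes changed sign. On library totals these were Ndufc1 (-0.20), Ndufa13 (-0.21), Ndufa12 (-0.23), Ndufb4 (-0.16), Des (-0.0759), Rpl15 (-0.17), Rpl4 (-0.25), Tnni1 (-0.18), Mtm1 (-0.51), Myh6 (-0.23), Myh7 (-0.15), Myh8 (-0.29), Myl3 (-0.0260), Tnnc1 (-0.27), Hoxb7 (-0.00345), Hoxa6 (-0.42) and Hoxd4 (-0.30). With the hepatocyte covariate they were Ucp1 (1.21), Otop1 (0.13), Sbk2 (-0.0260), Tnni1 (-0.0353), Mtm1 (-0.34), Myh6 (-0.22), Myh7 (-0.29), Myh8 (-0.62), Tnnc1 (-0.0900), Hoxb5 (0.17), Hoxa6 (-0.23) and Hoxd4 (-0.38). With diaphragm 3 alone they were Mtm1 (-0.20), Myh6 (-0.0198), Myh7 (-0.0381), Myh8 (-0.27), Hoxa6 (-0.14) and Hoxd4 (-0.22), where the lone library is assumed to vary as the gastrocnemius does. With a liver ratio of 1 they were Mtm1 (-0.14) and Hoxa6 (-0.0590), and Pln was 0.0689 with voom and, leaving out 1 library, ranged from -0.28 to 0.20, the latter without diaphragm 3. On library totals Ndufc1, Ndufa12, Ndufa13, Rpl4 and Mtm1 passed in the new direction. Beyond the median shift of all genes on that scale, the cause was not tested. The depth of the libraries leaves genes of a few reads, such as Hoxc9 in the diaphragm, without a firm ratio.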

Other observations

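The liver rule also left out genes that are almost silent in liver but more so in the gastrocnemius. Besides Lrrn4 and Upk1b, the epithelial mucin Muc16 had 0 counts in all 4 gastrocnemius libraries and stood at 11.6, 8.24, 16.5 and 18.9 CPM in diaphragm 1 to 4, with 0.228 CPM in liver. The mesothelial transcription factor Bnc1 was at 8.56, 5.14, 11.1 and 7.98 CPM in the diaphragm and keratin 7, Krt7, at 6.45, 3.82, 8.99 and 7.95 CPM, both highest in diaphragm 3. Cxcl13, a chemokine that draws B cells, was at 38, 11.5, 7.27 and 23.7 CPM and was lowest in diaphragm 3. The antibody light chain gene Iglc1 was at 36.3, 1.45, 0.534 and 6.09 CPM in the diaphragm and at 0 counts in the gastrocnemius. Lck, a kinase of T cells, was at 0.913, 17.9, 0.337 and 1.34 CPM, high in diaphragm 2 only. These genes were chosen after their values were seen. Keeping such genes where liver has under 1 CPM raised the count of calls from 2835 to 2885.

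Tbx1, a transcription factor of the pharyngeal region, was at 2.3, 2.84, 1.15 and 3.12 CPM in the gastrocnemius and at 35.8, 33.3, 48.8 and 42.3 CPM in the diaphragm (log2 fold change -4.10, adjusted p = 2.31e-06, edgeR). The calcium-activated potassium channel Kcnn3 was at 7.01, 4.91, 5.51 and 5.65 CPM against 12.1, 11.8, 18.7 and 10.2 CPM (log2 fold change -1.19, adjusted p = 0.000543, edgeR). Neither gene overlapped between the muscles, and both were named after their values were seen.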
